A study of Homo sapiens with 12 samples.

Results

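Ribosome production starts in the nucleolus, where RNA polymerase I transcribes the precursor of most ribosomal RNA. Small nucleolar ribonucleoproteins (snoRNPs) guide chemical modification of that precursor, and assembly factors fold it, cut it and join it to ribosomal proteins to give the small (40S) and large (60S) subunits. It is among the most costly activities of a growing cell, and the genes of its assembly factors are known to rise and fall together with growth signals. The genes described here are 37 ribosome biogenesis factors chosen by name, with earlier results of these data known. Of these, 31 could be measured. The measure was, for each gene, the probe set with the highest mean over all arrays among those naming only that gene. NOP56, DKC1, BOP1 and PPAN had only probe sets that carry several gene names, and no probe set named EBNA1BP2 or GNL3 in the annotation used here. All 31 measured members reached the level set for testing, 4 on the log2 scale for 3 arrays or more, as did 10784 of 19775 genes in all.

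The cells were HK-2, 1 immortalized human line of proximal tubular epithelium from the kidney. The 4 groups of 3 Affymetrix arrays, named as biological replicates, held RNA of cells given the treatment named Fk for 12 h, its control vehicle for 12 h, Fk for 48 h, or control vehicle for 48 h. The name Fk is not expanded in the labels and a dose was not used here. The study looked for expression signatures of toxicity in these cells across a panel of compounds. The members fall into 6 roles: RNA polymerase I subunits (2 measured of 2 listed), box C/D snoRNP proteins (2 of 3), box H/ACA snoRNP proteins (2 of 3), factors of the small subunit processome and 40S maturation (14 of 14), 60S assembly factors (7 of 11), and nucleolar chaperone, scaffold and helicase proteins (4 of 4).

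Values are log2 expression values, so a difference of 1 is a change by a factor of 2, and their number, 3 arrays per group, limits the precision. Array medians ran from 2.85 to 2.94 and upper quartiles from 6.90 to 7.16. Fk 12 h replicate 3 stood apart from the other 11 arrays. A control probe set for ribosomal RNA read 14.38 on it and 8.50 to 10.29 elsewhere, and a further probe set for the same RNA read 12.22 and 9.18 to 10.24. On the other 4 of the 6 ribosomal RNA control probe sets this array lay within the range of the rest. Of all genes tested, 21.3% lay more than 0.5 below the mean of Fk 12 h replicates 1 and 2 on it and 16.2% lay as far above. The members' counts, medians and differences at 12 h are therefore given with all arrays first and then without it. Other probe sets and most single genes of other lists are given with all arrays only. Of 10 proximal tubule markers measured, PAX8 and CDH6 were tested and reached a log2 value of 4 on all 12 arrays, while 8, including the transporter and receptor genes LRP2, CUBN, SLC34A1, SLC5A2 and AQP1, did not reach the level for testing. The epithelial markers KRT8, KRT18, EPCAM and CDH1 reached it on all 12 arrays. Of the markers of other cell types, 2 of 3 fibroblast genes (COL1A1 and DCN, on all 12 arrays), 1 of 3 endothelial genes (PECAM1, on 6 arrays) and 0 of 3 leukocyte genes were tested. In bulk RNA such as this, fewer cells of a kind and less RNA per cell cannot be told apart.

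A short promoter sequence element that the choice of genes did not use was more frequent among the members than among all tested genes. RefSeq promoter windows (build GRCh38.p14, from 250 bases before to 50 after the start of transcription) were at hand for 27 of the 31 measured members, and not for NOP58, RRP12, RRS1 and NOLC1. The E-box CACGTG, which reads the same on both strands and is a binding sequence of basic helix-loop-helix transcription factors, was present in 14 of these 27 members (51.9%) and in 1188 of the 8921 tested genes with a window (13.3%). All 14 lay between 31 bases before and 35 bases after the start, 10 of them after it. Within 50 bases of the start, a range chosen after these positions were seen, the E-box was present in 14 of 27 members and in 5.75% of the tested genes. The ETS core CCGGAAG, searched on both strands, was in 10 of 27 members (37.0%) against 23.3% of tested genes. The GC box GGGCGG was in 20 (74.1%) against 78.6%, and the TATA box TATAAA in 2 (7.41%) against 8.0%. No one of these strings contains another on either strand, a match is a description of the sequence and not a binding site, and a gene with several windows was counted once. The 14 members with an E-box were MRTO4, WDR43, PNO1, RRP9, NOP14, GAR1, BYSL, LTV1, DDX21, NAT10, NOP2, UTP20, FBL and PES1.

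The windows of 6 genes are printed 5′ to 3′ on the strand of the gene, for members whose values are described in most detail below. They are chr4:2963357-2963656 (minus strand) for NOP14, chr6:41921249-41921548 (plus) for BYSL, chr12:6568242-6568541 (minus) for NOP2, chr1:19251555-19251854 (plus) for MRTO4, chr19:39846330-39846629 (minus) for FBL and chr5:176388549-176388848 (minus) for NOP16. Capitals mark the E-box in NOP14, BYSL, NOP2, MRTO4 and FBL, and in NOP16, which has no E-box in its window, the ETS core, whose matches on either strand overlap.
NOP14: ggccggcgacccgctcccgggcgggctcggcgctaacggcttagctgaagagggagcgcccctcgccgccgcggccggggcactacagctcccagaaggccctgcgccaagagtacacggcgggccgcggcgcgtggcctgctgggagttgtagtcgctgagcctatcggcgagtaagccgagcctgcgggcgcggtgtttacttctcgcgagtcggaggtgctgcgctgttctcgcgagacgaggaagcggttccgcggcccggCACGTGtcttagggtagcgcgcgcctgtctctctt
BYSL: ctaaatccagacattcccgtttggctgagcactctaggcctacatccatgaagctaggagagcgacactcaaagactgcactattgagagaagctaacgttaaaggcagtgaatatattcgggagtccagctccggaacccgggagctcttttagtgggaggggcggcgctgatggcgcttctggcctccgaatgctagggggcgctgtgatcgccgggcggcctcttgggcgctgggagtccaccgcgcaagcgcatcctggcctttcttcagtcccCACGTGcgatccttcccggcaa
NOP2: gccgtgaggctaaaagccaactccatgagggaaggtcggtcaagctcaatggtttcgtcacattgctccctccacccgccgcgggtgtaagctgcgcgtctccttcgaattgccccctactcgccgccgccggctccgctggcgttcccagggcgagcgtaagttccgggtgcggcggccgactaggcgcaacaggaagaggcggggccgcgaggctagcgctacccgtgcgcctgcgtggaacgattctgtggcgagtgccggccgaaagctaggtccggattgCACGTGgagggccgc
MRTO4: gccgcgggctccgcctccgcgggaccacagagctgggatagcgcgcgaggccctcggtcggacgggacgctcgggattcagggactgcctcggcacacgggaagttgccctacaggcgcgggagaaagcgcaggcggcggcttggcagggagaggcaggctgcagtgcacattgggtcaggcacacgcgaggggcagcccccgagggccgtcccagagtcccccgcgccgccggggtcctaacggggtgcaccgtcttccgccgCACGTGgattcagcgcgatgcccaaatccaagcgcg
FBL: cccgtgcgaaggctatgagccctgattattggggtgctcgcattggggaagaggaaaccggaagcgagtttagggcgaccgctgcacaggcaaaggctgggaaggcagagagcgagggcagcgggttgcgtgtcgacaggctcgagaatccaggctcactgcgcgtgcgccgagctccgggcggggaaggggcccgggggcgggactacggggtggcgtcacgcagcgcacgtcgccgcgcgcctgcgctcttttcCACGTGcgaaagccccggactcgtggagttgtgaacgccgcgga
NOP16: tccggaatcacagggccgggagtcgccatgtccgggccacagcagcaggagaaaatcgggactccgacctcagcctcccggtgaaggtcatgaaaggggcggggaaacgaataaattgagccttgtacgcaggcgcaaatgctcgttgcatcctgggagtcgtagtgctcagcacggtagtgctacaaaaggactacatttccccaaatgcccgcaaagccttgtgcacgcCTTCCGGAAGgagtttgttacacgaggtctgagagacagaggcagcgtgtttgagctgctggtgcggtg

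At 12 h, all 31 members had a lower mean with Fk than with control, by small amounts, and none of them passed the test. The members were chosen with earlier results of these data known, so this count cannot be taken as independent of that choice. The log2 differences ran from -0.91 (UTP20) to -0.013 (NOP58) with a median of -0.28, while the median of all genes tested was 0.015 and 46.8% of them lay below 0. With limma's moderated test and Benjamini-Hochberg adjustment over all genes, 0 of 31 members and 0 of 10784 genes had an adjusted p under 0.05 (0% in either direction). The members' adjusted p ran from 0.575 to 0.998. At an unadjusted p under 0.05 there were 7 members lower and 0 higher, against 2.32% and 4.4% of all genes. In 16 members every Fk array lay below every control array, against 6.49% of all genes, and in 0 members every Fk array lay above (9.91% of all genes).

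**Figure D1:**
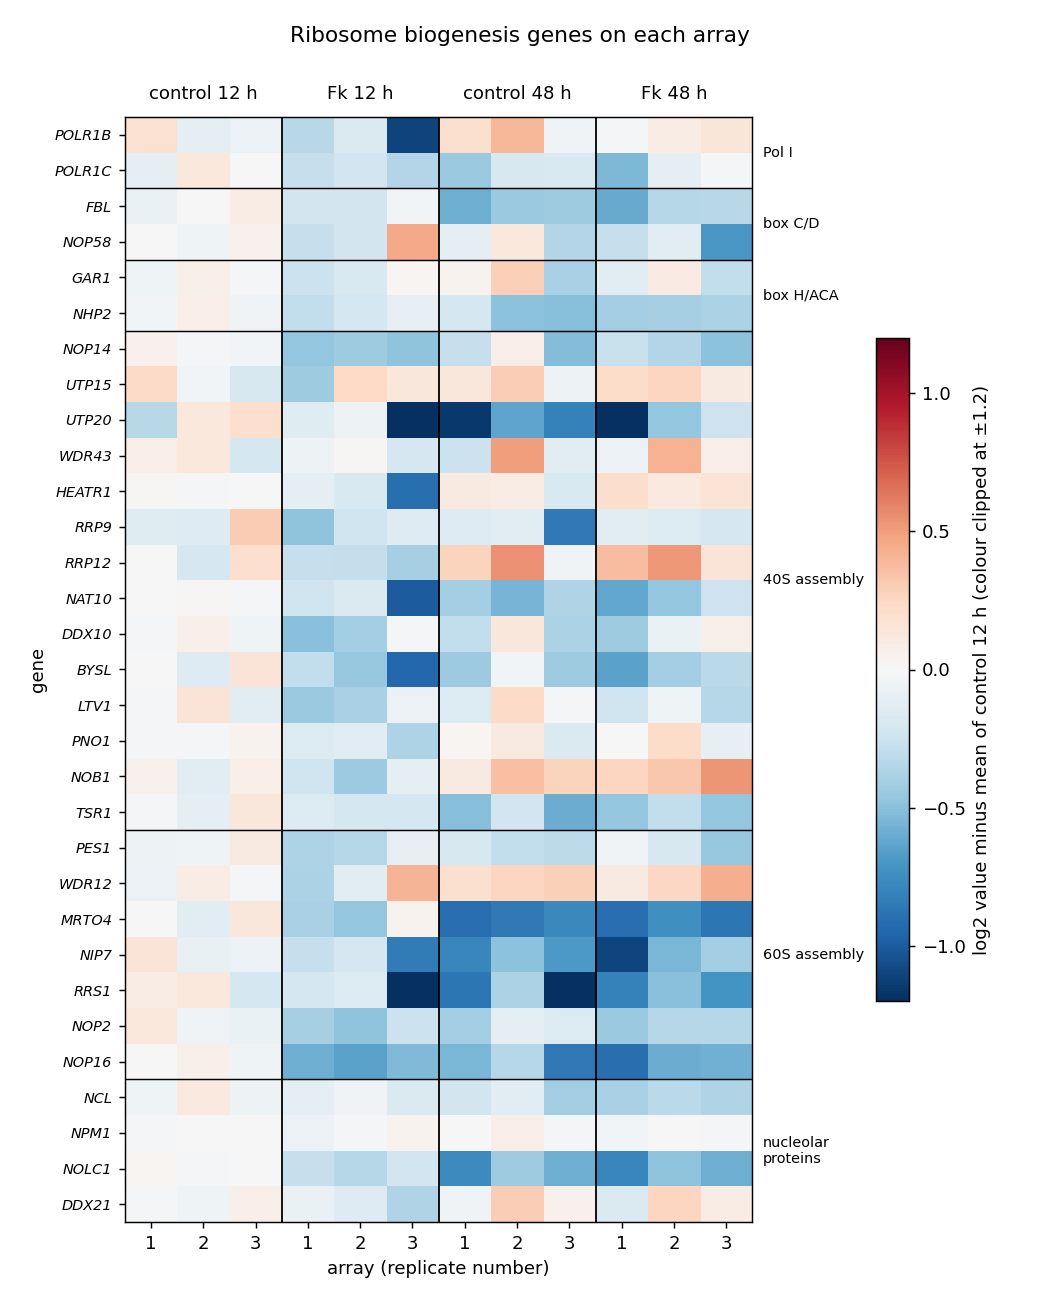
Each cell is the log2 value of 1 gene on 1 array minus that gene's mean over the 3 control 12 h arrays, with genes grouped by role and arrays by group; blue is lower, red higher, and colour is clipped at the ends of the scale. Most cells of Fk 12 h replicates 1 and 2 are pale blue, and Fk 12 h replicate 3 has both deep blue (UTP20, RRS1, POLR1B) and red cells (NOP58, WDR12). Deep blue cells also occur at 48 h, among them UTP20 on Fk replicate 1 and RRS1 on control replicate 3. At 48 h neither group lies to one side of the other over the genes, by the probe sets used.

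The count did not rest on Fk 12 h replicate 3, although the size for single genes did. Without this array 31 of 31 members were again below 0 (44.1% of all genes), with a median of -0.25. Then 0 members passed, while 3 genes of all tested passed, each of them higher (0.0278%). There were 10 members lower at an unadjusted p under 0.05 (2.87% of all genes) and 0 higher (5%), and in 26 members the 2 remaining Fk arrays lay below all control arrays (15.5% of all genes), with 0 above (21.7%). Without Fk 12 h replicate 1 instead, 27 of 31 members were below 0, and NOP58 (+0.12), UTP15 (+0.19), WDR12 (+0.14) and NPM1 (+0.014) were above it.

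**Figure D2:**
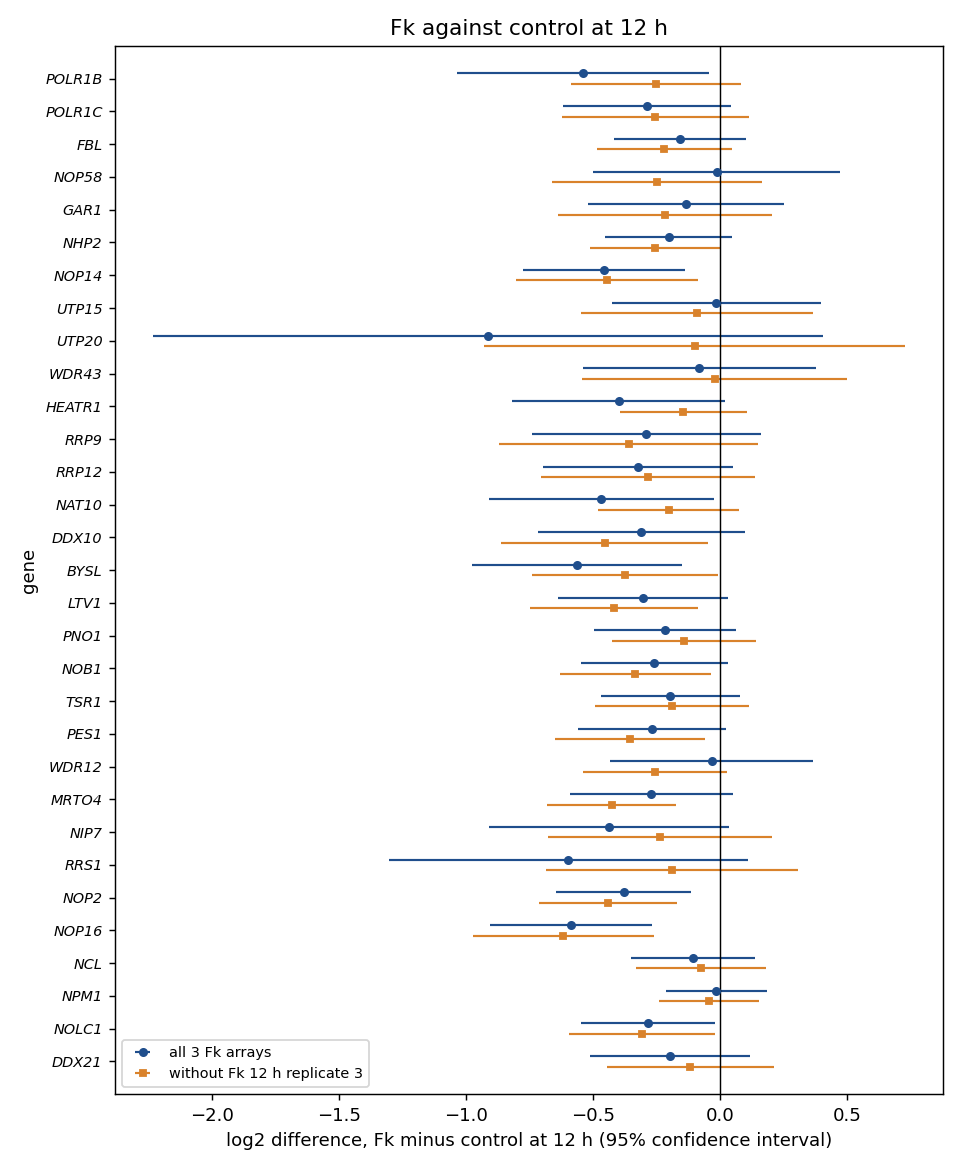
Points are the log2 difference Fk minus control at 12 h of each of the 31 measured members, with bars for the 95% confidence interval from limma; circles use all 3 Fk arrays and squares leave out Fk 12 h replicate 3. All points lie below 0, most intervals cross it, and the squares of UTP20, RRS1, POLR1B, NAT10 and HEATR1 lie nearer 0 than their circles.

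Among the 60S assembly factors, the median at 12 h was -0.38 (-0.36 without replicate 3) and 7 of 7 were below 0. NOP16, a nucleolar factor of the large subunit, read 10.15, 10.09 and 10.21 on the Fk arrays and 10.74, 10.79 and 10.68 on the control arrays. The groups were well separated, with each of them spread over 0.06 (SD), and replicate 3 lay close to the other Fk arrays. Its log2 difference was -0.59 ± 0.14 (SE, n = 3 per group; limma adjusted p = 0.575), or -0.62 without Fk 12 h replicate 3. This was the smallest unadjusted p among the members (0.00204, limma). NOP2, a methyltransferase of large-subunit ribosomal RNA, read 9.30, 9.23 and 9.45 with Fk and 9.83, 9.66 and 9.63 with control. All 3 Fk arrays were below all control arrays, and the difference was -0.38 ± 0.12 (limma adjusted p = 0.654), or -0.44 without replicate 3. MRTO4, which holds the place of a stalk protein on the young large subunit, read 9.33, 9.24 and 9.75 with Fk and 9.72, 9.58 and 9.84 with control. Here replicate 3 lay within the controls, so the difference was -0.27 with it and -0.43 without it.

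RRS1, also a 60S assembly factor, went the other way on that array. It read 10.10, 10.15 and 8.90 with Fk and 10.40, 10.44 and 10.10 with control. The difference of -0.60 ± 0.32 (SE) was -0.19 once replicate 3 was left out. NIP7, an RNA-binding 60S factor, showed the same dependence, with -0.44 and -0.24. PES1 and WDR12 form a complex with BOP1 that processes large-subunit RNA. PES1 had a difference of -0.27, or -0.36 without replicate 3, and WDR12 one of -0.034, or -0.26.

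Among the 14 factors of the small subunit processome and 40S maturation, the median was -0.31 (-0.24 without replicate 3) and all 14 were below 0. NOP14, a scaffold of the processome, read 7.94, 7.98 and 7.92 with Fk and 8.45, 8.39 and 8.37 with control. As for NOP16, the 2 groups were far apart for their spread and replicate 3 lay with its group. The difference was -0.46 ± 0.14 (SE; limma adjusted p = 0.654), or -0.45 without that replicate. BYSL (bystin), which binds the pre-40S particle, read 9.44, 9.28 and 8.80 with Fk and 9.73, 9.58 and 9.89 with control. Its Fk arrays were all below the control arrays, with replicate 3 the lowest, and the difference of -0.56 ± 0.19 (limma adjusted p = 0.668) was -0.37 without it.

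UTP20, a large scaffold protein of the processome, had the lowest difference of all members and the least stable one. Its Fk arrays read 7.88, 7.96 and 5.48 and its control arrays 7.69, 8.15 and 8.22. Only replicate 3 lay below the controls. The difference of -0.91 ± 0.59 (SE, n = 3 per group) was -0.10 without replicate 3, on which UTP20 deviated by -2.44 from the mean of the other Fk arrays. HEATR1, which links the processome to RNA polymerase I transcription, and NAT10, which acetylates small-subunit ribosomal RNA, also depended on this array. HEATR1 went from -0.40 to -0.15 and NAT10 from -0.47 to -0.20. By contrast LTV1 (-0.30 and -0.42) and the helicase DDX10 (-0.31 and -0.45) had larger differences without it. The nuclease NOB1, which makes the last cut of small-subunit ribosomal RNA, and its partner PNO1 had -0.26 and -0.22 on all arrays, and -0.34 and -0.14 without replicate 3. RRP12 (-0.32, or -0.28 without it), the U3 snoRNP protein RRP9 (-0.29, or -0.36) and TSR1 (-0.20, or -0.19) lay in the same range. WDR43 (-0.082, or -0.022) and UTP15 (-0.016, or -0.091) were nearest 0 by the probe sets used.

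Both RNA polymerase I subunits were lower without overlap of the arrays. POLR1B, a subunit of the catalytic core, read 9.02, 9.17 and 8.23 with Fk and 9.53, 9.24 and 9.28 with control. Replicate 3 was far below the other Fk arrays, and the difference of -0.54 ± 0.22 (SE; limma adjusted p = 0.73) was -0.25 without it. POLR1C, shared with RNA polymerase III, had -0.29, and -0.26 without replicate 3. With all arrays the snoRNP proteins had medians nearer 0, -0.085 for box C/D and -0.17 for box H/ACA, beside -0.41 for the polymerase subunits. Without replicate 3 the 3 medians were close together, at -0.23, -0.24 and -0.25. For box C/D, which guides ribose methylation, the methyltransferase FBL had -0.16, or -0.22 without replicate 3, and NOP58 had -0.013. NOP58 read 11.58, 11.64 and 12.32 with Fk and 11.86, 11.81 and 11.91 with control. Its replicates 1 and 2 lay below all controls and replicate 3 above them all, and without replicate 3 the difference was -0.25. For box H/ACA, which guides pseudouridylation, NHP2 had -0.20 and GAR1 -0.14, or -0.26 and -0.22 without replicate 3.

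The nucleolar chaperone, scaffold and helicase proteins had a median of -0.15, or -0.097 without replicate 3. NCL (nucleolin) had -0.11 and NPM1 (nucleophosmin) -0.016, with 95% intervals of -0.35 to 0.14 and -0.21 to 0.18, and had -0.076 and -0.045 without replicate 3. Other probe sets of NPM1 that reached the level for testing read -0.16 and -0.18 on all arrays. NOLC1, a chaperone that escorts snoRNPs, read 12.21, 12.14 and 12.25 with Fk and 12.50, 12.47 and 12.48 with control. The 2 groups did not overlap and each was narrow, and the difference was -0.28 ± 0.12 (SE; limma adjusted p = 0.737), or -0.31 without replicate 3. The helicase DDX21 had -0.20, or -0.12 without that array.

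On Fk 12 h replicate 3 itself the members moved both ways from the mean of replicates 1 and 2. Of 31 members, 15 lay below and 16 above, with a median deviation of 0.077. The 7 members more than 0.5 below were UTP20 (-2.44), RRS1 (-1.23), POLR1B (-0.86), NAT10 (-0.79), HEATR1 (-0.76), NIP7 (-0.60) and BYSL (-0.56). Of all genes tested, 21.3% lay as far below on this array, so the count of 7 was near that share. The 2 members as far above were NOP58 (+0.71) and WDR12 (+0.67), where 16.2% of all genes were so placed. The ribosomal RNA control signals given above moved with this array, and their part in these deviations was not tested.

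**Figure D3:**
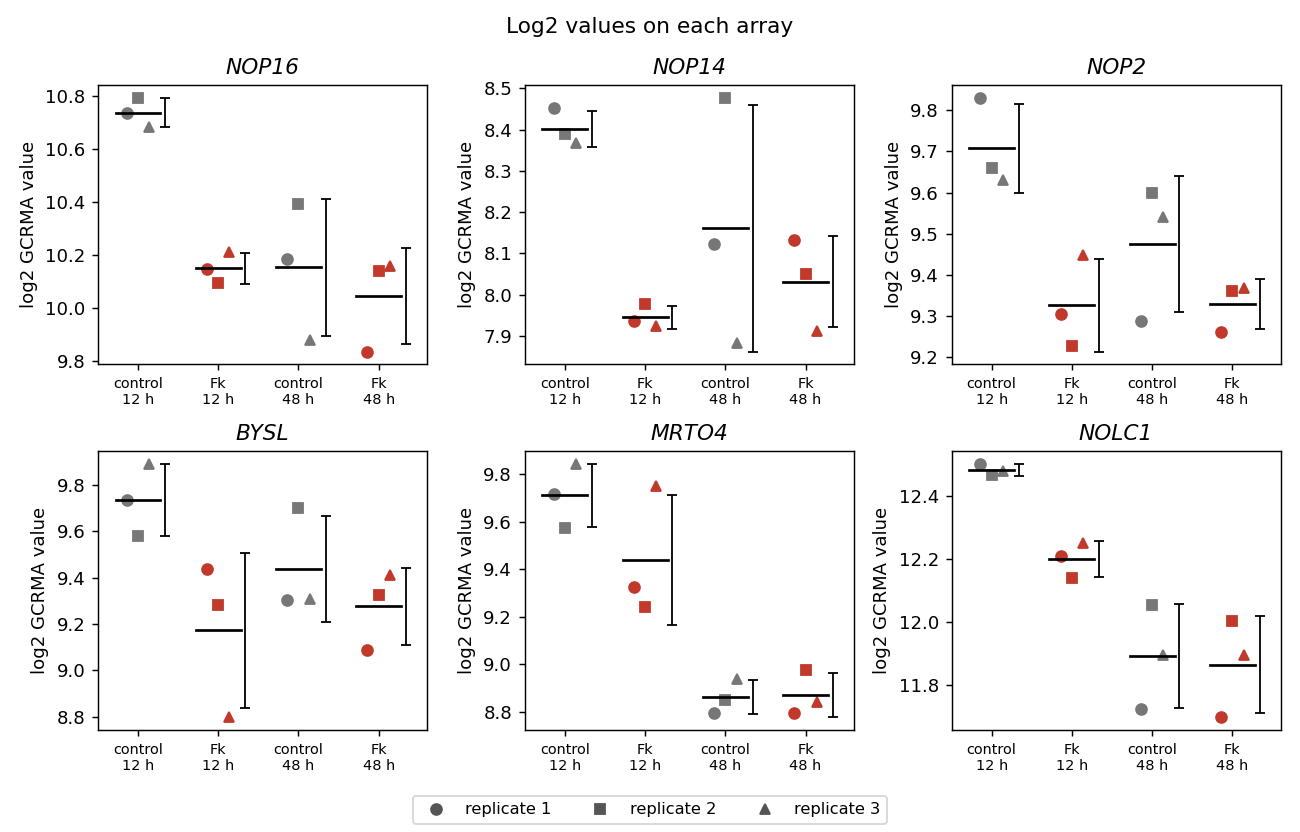
Log2 values on each array for NOP16, NOP14, NOP2, BYSL, MRTO4 and NOLC1, with marker shape for the replicate number, a line at the group mean and a bar of 1 SD on each side; axes do not start at 0 and differ between genes. At 12 h the Fk arrays lie below the control arrays except for MRTO4 replicate 3, at 48 h Fk and control overlap, and the control arrays of MRTO4 and NOLC1 lie lower at 48 h than at 12 h.

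At 48 h the members no longer lay to one side by the probe sets used. Of 31, 14 were below 0 and 17 above (46.2% of all genes below), with a median of 0.0090 beside 0.018 for all genes. The range was narrow, from -0.25 (NOP58) to +0.22 (RRP9). By limma, 0 members had an adjusted p under 0.05 and 0 an unadjusted p under 0.05. Of all genes, 0 (0%) passed and 1.95% were lower and 3.24% higher at an unadjusted p under 0.05. Only HEATR1 had all Fk arrays (10.77, 10.68 and 10.72) on one side of the control arrays (10.67, 10.65 and 10.37), above them, by +0.16. Of all genes 6.14% were so placed, and 4.02% below. The other probe sets of HEATR1 that reached the level for testing read +0.12, -0.30 and -0.049 at 48 h. The split by sign depended on single control arrays: without control 48 h replicate 2, 8 members were below 0, and without control 48 h replicate 3, 21 were. Control 48 h replicate 2 was the higher array for 27 of 31 members compared with the mean of the other control 48 h arrays, and replicate 3 the lower for 22. The split also depended on the probe sets read. With the mean of all probe sets of a gene, 22 members were below 0. Of 23 probe sets of members that were not used but reached the level for testing, 20 were below 0, the same count as at 12 h. They came from 14 genes, and the share among such probe sets of all genes was not counted.

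The genes with the largest separation at 12 h were close together at 48 h. NOP16 read 9.84, 10.14 and 10.16 with Fk and 10.19, 10.39 and 9.88 with control. The groups overlapped, with a difference of -0.11 (95% interval -0.43 to 0.21). NOP14 read 8.13, 8.05 and 7.91 with Fk and 8.12, 8.48 and 7.88 with control, a difference of -0.13 (-0.45 to 0.19). BYSL read 9.09, 9.33 and 9.41 with Fk and 9.30, 9.70 and 9.31 with control, a difference of -0.16 (-0.58 to 0.25). The 12 h values of -0.59 (NOP16), -0.46 (NOP14) and -0.56 (BYSL) have errors of their own, so these 48 h intervals do not compare the times. In the direct test given below, the unadjusted limma p was 0.0397 for NOP16, 0.136 for NOP14 and 0.158 for BYSL. POLR1B read 9.34, 9.44 and 9.49 with Fk and 9.54, 9.75 and 9.31 with control, a difference of -0.11 (-0.60 to 0.39).

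The smallest unadjusted p at 48 h belonged to LTV1, a factor of late 40S maturation. It read 9.61, 9.80 and 9.50 with Fk and 9.68, 10.07 and 9.82 with control, with overlap (-0.22, interval -0.56 to 0.11). NOP2 read 9.26, 9.36 and 9.37 with Fk and 9.29, 9.60 and 9.54 with control, so that the arrays overlapped (-0.15, interval -0.41 to 0.12). NOP58, the lowest, read 11.59, 11.74 and 11.16 with Fk and 11.74, 11.99 and 11.50 with control (-0.25, interval -0.74 to 0.23). RRP9, the highest, read 6.66, 6.62 and 6.58 with Fk and 6.63, 6.65 and 5.93 with control. Its difference rested on the single low control array, and without control 48 h replicate 3 it was -0.019 in place of +0.22. NOB1 had +0.13 and NCL -0.10. By role, the medians at 48 h ran from -0.094 (box C/D) to 0.062 (small subunit and 40S), with the 60S factors at 0.0090.

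The difference between the Fk effects at the 2 times was tested directly. It was above 0 (less negative at 48 h) in 29 of 31 members (48.4% of all genes were below 0), with a median of 0.28 beside 0.010 for all genes. The exceptions were NOP58 (-0.24, or -0.0037 without Fk 12 h replicate 3) and NPM1 (-0.020). With limma 0 members and 0 genes of all tested (0%) passed an adjusted p of 0.05. At an unadjusted p under 0.05 there was 1 member, NOP16, at +0.48 ± 0.20 (limma adjusted p = 0.996), against 1.33% of all genes in that direction, and 0 members were lower (1.98%). HEATR1 (+0.56), RRP9 (+0.51), RRP12 (+0.41) and NOB1 (+0.39) followed. HEATR1 was +0.30 without Fk 12 h replicate 3, and RRP9 and RRP12 were +0.27 and +0.26 without control 48 h replicate 3. The largest values, UTP20 at +0.99 and RRS1 at +0.75, were +0.18 and +0.34 without Fk 12 h replicate 3. The number below 0 was 2 in the full fit, 1 without control 48 h replicate 2, and 5 without Fk 12 h replicate 1, Fk 48 h replicate 2 or control 48 h replicate 3. So an effect at 12 h that was absent at 48 h was not shown for any single member.

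In the control cultures themselves, 6 of 31 members fell between 12 h and 48 h and 0 rose (limma adjusted p under 0.05). Of all genes tested, 10.9% fell and 10.6% rose, so many genes outside the list changed too. The members' median was -0.24 beside 0.011 for all genes, and 21 of 31 were below 0 (48.5% of all genes). In 14 members all 48 h control arrays lay below all 12 h control arrays (24.9% of all genes), and in 2 members, NOB1 and WDR12, above (25.1%). The count of 6 was 2 without control 12 h replicate 2 or 3, 3 without control 12 h replicate 1 or control 48 h replicate 1, 5 without control 48 h replicate 2 and 4 without control 48 h replicate 3. It was 9 without Fk 12 h replicate 3, which enters this contrast only through the shared estimate of spread, while 15.9% of all genes then fell. The 3 added were NIP7, RRS1 and NAT10. Calls over all genes, in either direction, changed in these fits too. They made up 21.5% with all arrays, and 12%, 10.8% and 9.83% without control 12 h replicate 1, 2 or 3. Without control 48 h replicate 1, 2 or 3 they made up 10.1%, 10.6% and 24.8%.

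MRTO4 fell most clearly. Its control arrays read 9.72, 9.58 and 9.84 at 12 h and 8.80, 8.85 and 8.94 at 48 h. The 2 times were far apart, and the Fk arrays at 48 h (8.80, 8.98 and 8.84) lay in the same place as the controls. The change was -0.85 ± 0.14 (SE, n = 3 per group; limma adjusted p = 0.00396). NOLC1 fell from 12.50, 12.47 and 12.48 to 11.72, 12.06 and 11.90, by -0.59 ± 0.12 (limma adjusted p = 0.00814). MRTO4 and NOLC1 passed with any single array left out. NOP16 fell from a mean of 10.74 ± 0.06 (SD, n = 3) to 10.15 ± 0.26, by -0.58 ± 0.14 (SE; adjusted p = 0.0185), and its adjusted p was 0.0517 to 0.0652 without any 1 of the control 12 h arrays or without control 48 h replicate 1.

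The snoRNP proteins FBL and NHP2 also fell. FBL went from 12.73, 12.81 and 12.90 to 12.23, 12.36 and 12.38 (-0.49 ± 0.12, limma adjusted p = 0.0162), and did not pass without control 12 h replicate 2 or 3 or control 48 h replicate 1 (adjusted p 0.0522 to 0.0667). NHP2 went from 12.12, 12.23 and 12.11 to 11.94, 11.66 and 11.65 (-0.41 ± 0.11, adjusted p = 0.0294). TSR1, of late 40S maturation, went from 10.50, 10.40 and 10.66 to 10.01, 10.29 and 9.93 (-0.45 ± 0.12, adjusted p = 0.0296). In each of these genes the 2 times did not overlap. NHP2 and TSR1 each lost the call without 5 of the 6 control arrays in turn, and the other probe sets of TSR1 read -0.29, -0.04 and +0.36.

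Several 60S factors lay close to the threshold or lay on the other side of 0. NIP7 had -0.65 ± 0.21 (limma adjusted p = 0.0517) and RRS1 -0.83 ± 0.32 (0.0894), so the 7 measured 60S factors had a median of -0.58, whereas WDR12 had +0.25. The small subunit and 40S group had a median of -0.098, with RRP12 the highest of all members at +0.26. UTP20 at -0.87 ± 0.59, NAT10 at -0.44, NOP14 at -0.24 and BYSL at -0.30 did not pass in the full fit. The spread in that fit includes the Fk arrays, where UTP20 had an SD of 1.41 at 12 h and 0.76 at 48 h. Its control arrays had SDs of 0.29 and 0.27. In a limma fit to the control arrays alone, UTP20 (adjusted p = 0.0244), NAT10 (0.0213), NIP7 (0.0148) and RRS1 (0.0397) passed. TSR1 (0.0524) did not, and 29% of all genes were called. POLR1B had +0.18. NPM1 had 0.023. The 12 h control arrays serve both this contrast and the Fk effect at 12 h, so the 2 sets of values are not independent: side by side, NOP16 had -0.58 over time and -0.59 with Fk at 12 h, NOLC1 -0.59 and -0.28, MRTO4 -0.85 and -0.27, and NOP14 -0.24 and -0.46.

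The members' other probe sets gave a further reading of the same RNA. Of 65 probe sets naming members, 23 that were not used reached the level for testing, for 14 genes. Probe sets of the same gene are not independent readings. The share below 0 among such probe sets of all genes was not counted, nor were counts made without Fk 12 h replicate 3. At 12 h, 20 of the 23 were below 0, the sign of the probe sets used. The other probe set of NOP16 read -0.49, and those of POLR1B read +0.14, -1.35 and -0.40 beside -0.54 for the one used. Those of RRP12 and WDR12 read +0.12 and +0.029 beside -0.32 and -0.034. Those of UTP15 and MRTO4 read -0.77 and -0.69 beside -0.016 and -0.27. At 48 h 20 of 23 were also below 0, while only 11 had the sign of the probe set used, so the balance of signs at 48 h depends on the probe sets read. Over time in control cells 15 of 23 were below 0 and 13 had the sign of the one used.

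Neighbouring genes of the same pathway were read from lists chosen by name, also with earlier results of these data known. None of their genes passed at 12 h or 48 h. At 12 h, 36 of 45 other 40S assembly genes (median -0.17) and 39 of 50 other 60S assembly genes (median -0.13) were below 0, or 41 and 43 without Fk 12 h replicate 3. Among these 40S and 60S genes the smallest p values belonged to SNU13 (-0.36), a protein shared by the snoRNPs and the spliceosome, NOP9 (-0.40), LYAR (-0.49) and NOC2L (-0.31). Their adjusted p ran from 0.673 to 0.689 by limma. The ribosomal proteins had medians nearer 0 with all arrays, which depended on that array. Of 57 cytosolic ribosomal protein genes, 26 were below 0 with a median of 0.0036, or 45 with a median of -0.06 without Fk 12 h replicate 3. RPL39L had the smallest unadjusted p of all these neighbouring lists at 12 h (0.00743, limma, with adjusted p = 0.654) and was higher with Fk. Its difference was +0.44, or +0.49 without replicate 3. Of 75 mitochondrial ribosomal protein genes, 52 were below 0 (median -0.072), with the smallest p for MRPL27 (-0.47). Without replicate 3, 64 were below 0 with a median of -0.19, where the other 60S genes had -0.19 and the other 40S genes -0.22. The 13 other RNA polymerase I genes had 7 below 0 and a median of -0.014, or 10 and -0.033 without replicate 3, with POLR1G at -0.65 (-0.22 without it) and the transcription factor UBTF at +0.30. The RNA exosome, which trims and degrades RNA, had 6 of 12 below 0 (median -0.059), or 9 (median -0.099) without replicate 3. Its smallest p belonged to EXOSC7, at -0.46.

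**Figure D4:**
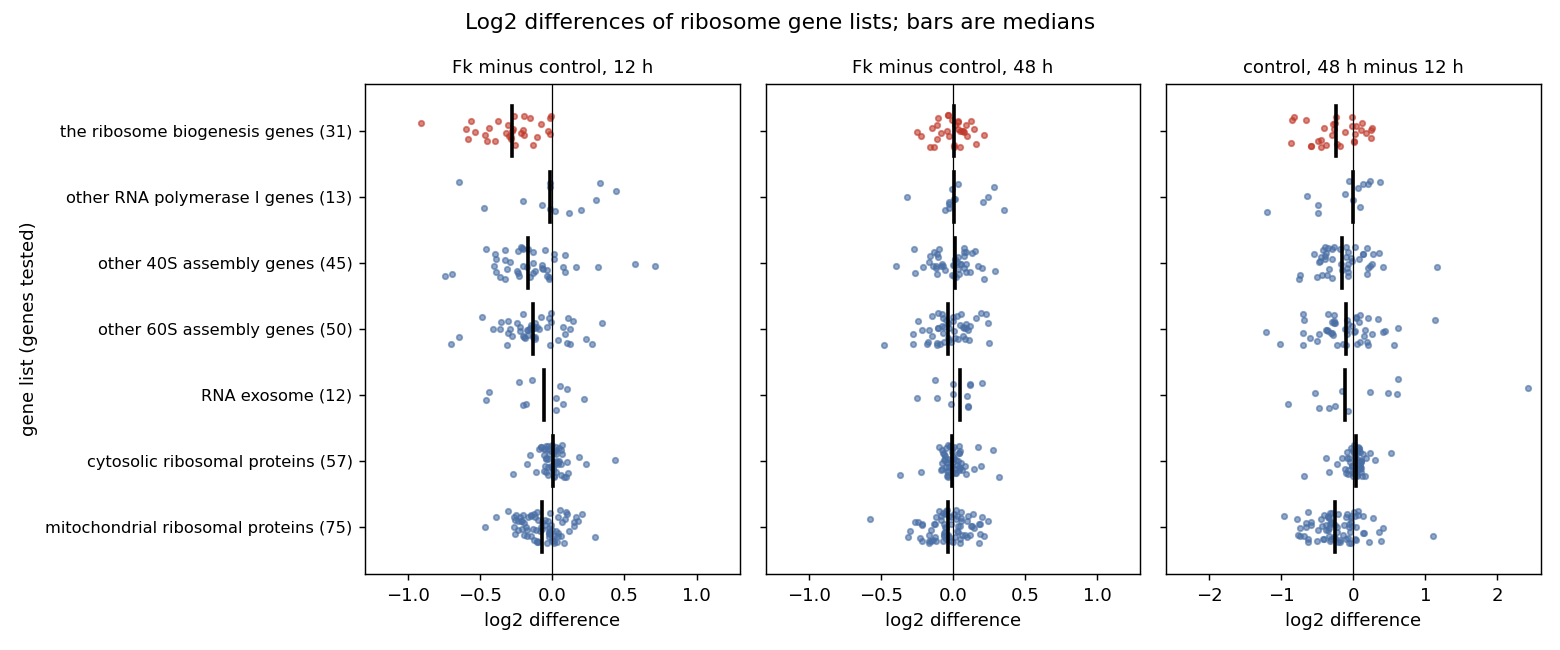
Each point is 1 gene's log2 difference for Fk minus control at 12 h, Fk minus control at 48 h and control 48 h minus 12 h, in 7 lists with the number of genes tested in brackets; black bars are medians, vertical position within a list has no meaning, and the third panel has a wider axis. All 3 panels use every array. At 12 h the ribosome biogenesis genes lie below 0 and the cytosolic ribosomal proteins lie around 0, at 48 h all lists lie around 0, and over time the ribosome biogenesis genes and the mitochondrial ribosomal proteins have the lowest medians.

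Over time in the control cells, 7 of 45 other 40S assembly genes fell and 1 rose, as did 6 and 2 of 50 other 60S assembly genes (limma adjusted p under 0.05; 10.9% of all genes fell and 10.6% rose). FTSJ3, a methyltransferase of pre-ribosomes, fell by 1.02 on the log2 scale (adjusted p = 0.00154) and LYAR fell by 1.21 (adjusted p = 0.0023). RRP36 fell by 0.75 and the GTPase gene BMS1 fell by 0.76. Of the other RNA polymerase I genes 1 of 13 fell, POLR1G (-1.19, adjusted p = 0.0342). In the exosome 3 of 12 fell and 1 rose (EXOSC6, +2.42). Of 57 cytosolic ribosomal protein genes 2 fell, RPL39L (-0.68) and FAU (-0.38), and 0 rose. Of 75 mitochondrial ribosomal protein genes 16 fell and 1, MRPS6 (+1.10), rose, with a list median of -0.25.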

How the data were processed

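The authors deposited log2 values per probe set, made with GCRMA per the submitters' processing notes, for 54675 probe sets on 12 arrays. GCRMA corrects background by probe sequence, normalizes between arrays and summarises probes. Its version, and whether these arrays were processed with others, are not given in the sources used here. Of these probe sets 41097 carry 1 gene symbol, 1801 several and 11777 none in the platform annotation.

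Group means over all 12 arrays were fitted with limma 3.58.1 in R 4.3.3 and eBayes (residual degrees of freedom 8, prior 2.44). Two-sided p-values were adjusted over 10784 genes by Benjamini-Hochberg, with 0.05 as the threshold. Fk was compared with control at either time, the effects of both times were compared with each other, and the 48 h controls were compared with the 12 h controls. Nothing in the labels says whether the replicates came from separate experiments, so p-values measure the spread between these cultures, and time in culture and time under treatment cannot be told apart in the control contrast. Members, roles and companion lists were chosen with earlier results of these data known. The genes given in most detail were those that passed, or otherwise the 6 with the smallest p in a contrast, with NOP16, NOP14, BYSL, POLR1B and the extremes added; of companion lists, the 2 smallest p. Replicate numbers were not taken to pair the arrays, since the labels name no shared source and not every correlation was over 0.1: those of same-numbered deviations of Fk and control were 0.041, 0.265 and 0.163 at 12 h and 0.798, -0.025 and 0.606 at 48 h. In all, 23 other settings were run, 12 of which left out 1 array. The gene test was checked on simulated data. Promoter windows came from RefSeq, build GRCh38.p14. Tables and figures were made with pandas 2.3.3 and matplotlib 3.10.9.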

Additional observations from a re-analysis of the deposited data

Results flagged for a closer look

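A ribosomal RNA control probe set, which measures no gene of the comparisons, read 14.38 on Fk 12 h replicate 3, against 8.50 to 10.29 on the other 11 arrays, control arrays included. It stood out as a signal outside the main measurement that lay above the level in every control array.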

How the results depend on the processing

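Leaving out 1 array at a time gave 27 to 31 members below 0 at 12 h and medians from -0.30 to -0.22. It gave ranges from -0.25 to +0.12 for NOP58, -0.14 to +0.19 for UTP15, -0.26 to +0.14 for WDR12 and -0.045 to +0.014 for NPM1. At 48 h the members below 0 ran from 8 to 21, RRP9 from -0.019 to +0.34, NOP16 from -0.25 to +0.012, NOP14 from -0.27 to +0.028 and POLR1B from -0.22 to +0.0011. For the difference between times, 1 to 5 members were below 0, and in control cells over time 2 to 9 members fell. Calls over all genes in control cells over time then ran from 9.83% to 31.9%. With array quality weights, which gave Fk 12 h replicate 3 a weight of 0.121, 3 members were lower at 12 h (NOP16, adjusted p = 0.0244; NOP2, 0.0382; MRTO4, 0.0492) among 156 genes in all (1.45%) by limma. Over time these weights gave 10 members lower and 1 higher (RRP12, +0.40) of 31, where 45.6% of all genes were called, and NOP58 was +0.036 for the difference between times. With the mean of all probe sets of a gene, 22 members were below 0 at 48 h and 4 for the difference between times, where RRP12 was -0.11. Without probe sets ending in _s_at or _x_at, which left 24 members, 2 members fell over time, TSR1 read +0.36 and POLR1B -0.11. With a block for the replicate number, 0 members passed in either Fk comparison or their difference, and 7 fell over time, where 21.2% of all genes were called, NHP2 and TSR1 not among them. In the remaining settings (median centring, quantile normalization, other filters, a mean-variance trend, fits to the groups compared) the counts stayed within 1.5 times of those reported. Single calls over time still changed. The fit to the groups compared added UTP20, NAT10, NIP7 and RRS1 and lost TSR1. Median centring, the filter at a log2 value of 6 and the mean-variance trend each added NIP7.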
